A study of Homo sapiens with 30 samples.

Results

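The results concern 8 genes whose transcription follows signalling through the kinase ERK, namely the transcription factors ETV4 and ETV5, the ERK phosphatase DUSP6, the membrane antagonist IL17RD, the Sprouty genes SPRY1, SPRY2 and SPRY4, and SPRED1. They were chosen by name, and every probe that the platform annotation gives to 1 of these symbols was taken. The arrays held 12 such probes, of which 10 passed the filter on detection, and all 8 genes were among the 13488 genes tested. The samples were cultures of H9, a line of human embryonic stem cells, and 30 Illumina bead arrays measured total RNA in 10 groups of 3. The groups were day 1, day 3, and an arm labelled NSB and an arm labelled PIP, each at days 5, 7, 9 and 11. The labels give no genetic change in any group and leave the names NSB and PIP unexplained. As background from knowledge of the study, the NSB medium drives cells towards neural ectoderm with Noggin, which blocks BMP ligands, and an inhibitor of the receptors for activin and Nodal, while the PIP medium withdraws Noggin partway and was designed for cranial placodes, the thickenings of head ectoderm that form sense organs and ganglia. Days 1 and 3 were shared by both arms, all arrays came from 1 cell line, and each array of days 3 and 5 is named by 2 sample codes with no statement on pooling. Each array of the other days is named by 1 code. The steps from day 1 to day 3, from day 5 to day 7 and from day 3 to day 11 cross that difference in naming. What it reflects cannot be told apart from the day on those steps.

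Fibroblast growth factors (FGFs) and other ligands of receptor tyrosine kinases act through RAS, RAF and MEK to phosphorylate ERK, which then alters transcription. Among the genes that ERK induces are ETS factors of the PEA3 group, which include ETV4 and ETV5, and proteins that dampen the same pathway. DUSP6 removes phosphate from ERK in the cytoplasm, IL17RD (also called Sef) antagonises FGF signalling at membranes, Sprouty proteins inhibit signalling between the receptor and ERK, and SPRED1 brings neurofibromin to the membrane to lower active RAS. In vertebrate embryos FGF signalling takes part in neural induction, in patterning of the forebrain and in the formation of placodes, and transcripts of these feedback genes are widely used as markers of where the pathway is active. The arrays measured transcripts only, and ERK phosphorylation was not analysed here.

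Promoters are shown for DUSP6, SPRY1 and SPRY2, since these members fell from day 9 to day 11 in both arms after a maximum at day 9. ETV5 also had its highest group mean at day 9 in each arm, but it is not in the promoter table and its arrays of NSB days 9 and 11 overlapped. Each is the 250 bases before the annotated start in RefSeq on GRCh38.p14, written 5′ to 3′ on the strand of the gene, for DUSP6 chr12:89352502-89352751 (minus strand), for SPRY1 chr4:123396545-123396794 (plus strand) and for SPRY2 chr13:80341127-80341376 (minus strand). Capitals mark GGAA or its reverse complement TTCC, the core letters that ETS factors bind.
DUSP6: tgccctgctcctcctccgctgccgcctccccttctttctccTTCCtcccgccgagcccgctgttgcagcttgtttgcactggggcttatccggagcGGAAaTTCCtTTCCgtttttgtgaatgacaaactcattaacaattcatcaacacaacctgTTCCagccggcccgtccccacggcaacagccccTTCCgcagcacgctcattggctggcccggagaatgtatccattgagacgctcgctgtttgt
SPRY1: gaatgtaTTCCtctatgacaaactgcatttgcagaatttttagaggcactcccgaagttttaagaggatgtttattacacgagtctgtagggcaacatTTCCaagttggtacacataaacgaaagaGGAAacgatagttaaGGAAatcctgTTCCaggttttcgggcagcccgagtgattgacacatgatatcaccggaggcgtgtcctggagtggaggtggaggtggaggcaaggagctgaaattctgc
SPRY2: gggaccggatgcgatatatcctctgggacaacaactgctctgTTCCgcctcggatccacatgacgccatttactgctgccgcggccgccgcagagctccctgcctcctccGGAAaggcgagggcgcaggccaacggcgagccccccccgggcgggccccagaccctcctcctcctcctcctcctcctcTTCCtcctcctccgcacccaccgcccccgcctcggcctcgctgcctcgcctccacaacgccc
The DUSP6 window held 6 matches on both strands together, the SPRY1 window 5 and the SPRY2 window 3, against a median of 3 over 35116 promoter windows of the same length. At least 1 match stood in 92.7% of those windows. The longer motif CCGGAA, searched on both strands and containing GGAA, stood in 14.5% of the windows and once in the SPRY2 window, where its first base lay at -142 from the start. The table held promoters for 6 of the 8 members, and in the windows of IL17RD, SPRY4 and SPRED1 there were 1, 2 and 3 matches to the core letters. A match of letters is a description and does not show binding.

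Levels below are log2 of the normalized intensity of each array, and a gene with several probes is represented by its brightest one. Median raw signal ranged from 45.4 to 74.7 per array, 34.0% to 37.7% of probes were detected, and arrays of a group correlated at r = 0.988 to 0.998 over genes. On the third principal component, which held 9.92% of the variance, the 6 arrays of day 9 in both arms lay at -27.0 to -20.7 and all others at -12.7 to 24.6. Results that involve day 9 rest wholly on those arrays, so a property of that day's cultures or arrays cannot be told apart from the day itself. The labels were checked against marker genes. The summed normalized intensity of 9 pluripotency genes was 47860 to 49923 at day 1, and at day 11 it was 16796 to 17463 in NSB and 15740 to 16704 in PIP. Among these genes LIN28A did not fall, with a mean log2 level of 12.96 at day 1 and of 13.12 in NSB and 13.23 in PIP at day 11. The sum of 10 anterior neural genes at day 11 was 27153 to 29605 in NSB and 20741 to 21188 in PIP, and that of 9 genes of non-neural ectoderm and placode was 1604 to 1855 in NSB and 7004 to 7945 in PIP. Of the neural genes, PAX6 and OTX2 had higher means in PIP (10.31 and 12.37) than in NSB (10.28 and 12.04), and the others had lower ones. Arrays within a group are labelled as biological replicates, and their number of 3 limits the precision of every value.

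**Figure D1:**
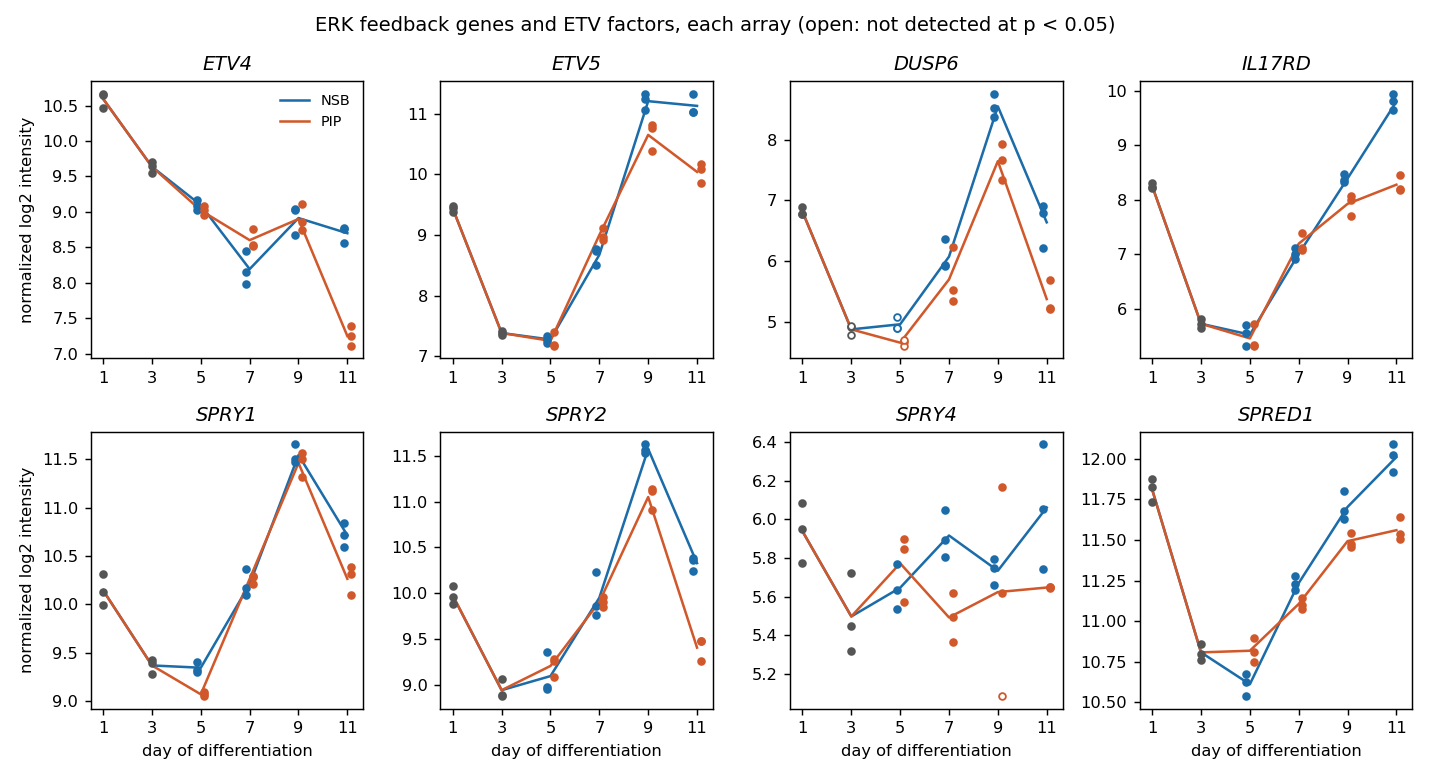
Normalized log2 level of each member (vertical axes) against day of culture (horizontal axes), with 1 point per array, lines through the group means of the NSB and PIP arms, and open points where the probe was not detected. DUSP6, SPRY1 and SPRY2 are highest at day 9 in both arms, ETV4 is highest at day 1, and IL17RD and SPRED1 are highest in NSB at day 11.

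Between day 1 and day 3, before the arms part, transcripts of all 8 members fell. The falls ranged from 0.44 for SPRY4 to 2.53 for IL17RD on the log2 scale, with a median of -1.02 against 0.01 over all genes tested. This was a comparison in which 54.4% of all genes passed the threshold of an adjusted p of 0.05 in either direction, and 25.4% were called lower. All adjusted p-values are from limma with Benjamini-Hochberg adjustment over the 13488 genes, except where a fit over probes is named. IL17RD stood at 8.21, 8.23 and 8.31 on the arrays of day 1 and at 5.72, 5.64 and 5.81 on those of day 3, a fall of 5.77-fold (log2 difference -2.53 ± 0.12, SE, n = 3 per group, adjusted p = 1.53e-16). ETV5 went from 9.48, 9.38 and 9.45 to 7.38, 7.35 and 7.42, which was 4.15-fold lower at day 3 (adjusted p = 2.91e-15). The groups did not overlap for either gene. DUSP6 was detected on every array of day 1, at 6.89, 6.78 and 6.78, and on no array of day 3, where its probe read 4.79, 4.92 and 4.94. Set against the lowest intensity that counted as detected on each array, DUSP6 was at least 3.21-fold lower at day 3 (adjusted p = 8.44e-10). ETV4, SPRY2 and SPRED1 fell by similar amounts, with log2 differences of -0.96 ± 0.11, -1.03 ± 0.11 and -1.01 ± 0.07, and SPRY1 changed by -0.78 ± 0.09. For SPRY4 the difference of -0.44 ± 0.17 passed at an adjusted p of 0.0324, and it no longer passed without replicate 1 or 2 of day 1 or without replicate 2 or 3 of day 3 (adjusted p 0.0692 to 0.137). Median scaling on all probes moved the median of all genes on this step by 0.24 and the share of called genes that were higher from 53.3% to 78.9%, and scaling on detected probes gave 36.4%. All 8 members stayed lower at day 3 under both, and SPRY4 missed the threshold under the first (-0.23, adjusted p 0.227). Arrays of day 3 carry 2 sample codes each and those of day 1 carry 1, and whatever that reflects cannot be told apart from the day. In bulk RNA, fewer cells that express a gene and less of its RNA per cell cannot be told apart.

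The ETS factors ETV4 and ETV5 took different courses after day 3. ETV5, whose difference between days 5 and 3 did not pass in either arm (-0.11 in NSB and -0.13 in PIP), rose at day 7 and again at day 9 in both arms, while ETV4 went on falling to day 7. At day 5 ETV5 read 7.34, 7.22 and 7.26 in NSB and 7.40, 7.19 and 7.18 in PIP. At day 7 it read 8.77, 8.51 and 8.74 in NSB and 8.96, 8.92 and 9.12 in PIP, and at day 9 it read 11.23, 11.06 and 11.33 in NSB and 10.38, 10.76 and 10.82 in PIP. At day 11 the NSB arrays were at 11.33, 11.02 and 11.03 and the PIP arrays at 10.10, 10.17 and 9.86. Every array of days 9 and 11 was above every array of day 1, and both arms of day 5 overlapped each other at the low end. From day 3 to day 11 ETV5 rose 13.4-fold in NSB (adjusted p = 1.16e-21) and 6.31-fold in PIP (adjusted p = 3.39e-18).

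ETV4 was highest at day 1, at 10.46, 10.65 and 10.67, and second highest at day 3, at 9.71, 9.55 and 9.65. In NSB it went on to 9.03, 9.09 and 9.17 at day 5, 8.44, 8.15 and 7.99 at day 7, 9.04, 9.02 and 8.68 at day 9 and 8.78, 8.56 and 8.76 at day 11. In PIP the arrays were at 9.08, 9.03 and 8.95 on day 5, at 8.51, 8.54 and 8.75 on day 7, at 8.74, 8.85 and 9.11 on day 9 and at 7.38, 7.25 and 7.11 on day 11. The PIP arrays of day 11 were thus the lowest of all 30, below the next group, NSB at day 7. ETV4 fell from day 3 to day 11 in both arms, by 0.94 on the log2 scale in NSB and by 2.39 in PIP, a 5.24-fold decrease (adjusted p = 1.23e-16). By this test, on the brightest probe of each gene, ETV4 was the only member of the 8 lower at day 11 than day 3. A dimmer SPRY4 probe that passed the filter was also lower at day 11, with log2 differences of -0.92 in NSB and -1.08 in PIP. It passed in both arms in a limma fit over probes (adjusted p = 4.64e-07 and 3.11e-08). That probe was not detected at day 11 in either arm, so these sizes are readings at background. The ETV4 step from day 7 to day 9 was a rise of 0.72 ± 0.11 in NSB (adjusted p = 6.95e-06). In PIP the rise was 0.30 ± 0.11 (adjusted p = 0.0336), where the arrays of both days overlapped. The PIP call was lost without replicate 1 or 2 of day 7 or replicate 3 of day 9 (adjusted p 0.104 to 0.212), with only the groups compared (adjusted p = 0.0517) and under median scaling on all probes (0.17, adjusted p = 0.330).

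Of the antagonists that act on ERK itself or at the membrane, DUSP6 had a sharp maximum at day 9. Its probe was not detected on any of the 9 arrays of day 3 and day 5, so levels there are not well above background. It read 5.93, 6.37 and 5.94 in NSB and 6.23, 5.35 and 5.53 in PIP at day 7, and at day 9 it read 8.37, 8.51 and 8.76 in NSB and 7.34, 7.66 and 7.94 in PIP. At day 11 it was back at 6.79, 6.92 and 6.21 in NSB and 5.69, 5.23 and 5.22 in PIP. The rise from day 7 to day 9 was 5.53-fold in NSB (log2 difference 2.47 ± 0.19, adjusted p = 1.29e-11) and 3.85-fold in PIP (1.94 ± 0.19, adjusted p = 1.48e-09). The fall from day 9 to day 11 was -1.90 ± 0.19 in NSB and -2.27 ± 0.19 in PIP, with adjusted p-values of 1.54e-09 and 7.90e-11. No array of day 9 overlapped an array of any other day, and the NSB arrays of day 9 lay above the PIP ones.

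IL17RD spanned 24.6-fold between its lowest and highest array and was detected on all 30. It was low at day 5, at 5.32, 5.70 and 5.55 in NSB and 5.33, 5.32 and 5.71 in PIP, which overlapped each other. It then read 7.11, 6.90 and 7.00 in NSB and 7.12, 7.07 and 7.39 in PIP at day 7. At day 9 the NSB arrays were at 8.36, 8.47 and 8.33 and the PIP arrays between 7.70 and 8.06, and at day 11 they were at 9.65, 9.80 and 9.94 in NSB and at 8.45, 8.18 and 8.19 in PIP. Unlike DUSP6, IL17RD did not turn down after day 9: it rose by 1.41 ± 0.12 in NSB (adjusted p = 7.36e-11) and by 0.35 ± 0.12 in PIP (adjusted p = 0.0147), where the call was lost without replicate 1 of PIP day 9 (0.24, adjusted p = 0.122) or of PIP day 11 (0.27, adjusted p = 0.0969). From day 3 to day 11 it rose 16.9-fold in NSB (adjusted p = 9.48e-22) and 5.86-fold in PIP (adjusted p = 5.08e-17). The NSB arrays of day 11 stood above all other arrays, and PIP at day 11 overlapped NSB at day 9 and day 1.

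The Sprouty genes SPRY1 and SPRY2 were detected on every array and peaked at day 9. SPRY1 read 9.28, 9.43 and 9.39 at day 3, and at day 9 it read 11.66, 11.47 and 11.51 in NSB and 11.32, 11.50 and 11.57 in PIP, which overlapped. At day 11 it was lower again, at 10.84, 10.59 and 10.71 in NSB and 10.38, 10.10 and 10.31 in PIP. SPRY2 read 8.88, 9.06 and 8.88 at day 3, and at day 9 it read 11.56, 11.63 and 11.53 in NSB and 10.90, 11.11 and 11.13 in PIP. Its arrays of day 11 were at 10.37, 10.24 and 10.38 in NSB and 9.48, 9.26 and 9.48 in PIP. For SPRY2 the arms were apart at both days, with NSB above PIP, and PIP at day 11 overlapped day 5 of its own arm. From day 9 to day 11 SPRY1 fell by 0.83 on the log2 scale in NSB and by 1.20 in PIP, and SPRY2 fell by 1.25 in NSB and by 1.64 in PIP (adjusted p = 1.90e-08, 2.73e-11, 2.32e-10 and 1.62e-12). A further SPRY1 probe that passed the filter moved the same way, with a difference of -1.04 between days 3 and 1 and of 1.77 between days 9 and 7 in NSB, and it gave 0.00 between PIP day 5 and day 3, where the brighter probe gave -0.30 and passed (adjusted p = 0.0101).

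SPRY4 depended on the probe. The brighter of its filtered probes lay near background, between group means of 5.49 and 6.06, and was detected on 29 of 30 arrays. Of the 16 comparisons, it passed only in that of day 3 with day 1 and in that of NSB day 11 with day 3 (0.56 ± 0.17, adjusted p = 0.00539, lost without replicate 3 of NSB day 11). The other filtered probe was detected on 14 arrays, and on those of day 1 it read 7.35, 7.20 and 7.23, and on those of day 3 it read 5.74, 5.88 and 5.60. At day 9 it read 6.41, 6.63 and 6.64 in NSB and 5.16, 5.80 and 5.94 in PIP, and at days 7 and 11 it was not detected in either arm. In a limma fit over the 15495 probes with 1 symbol it changed by -1.52 between days 3 and 1 (adjusted p = 7.42e-11), and it was at least 2.59-fold higher at NSB day 9 than at NSB day 7 (adjusted p = 1.39e-11) and at least 2.46-fold lower at NSB day 11 than at NSB day 9 (adjusted p = 8.59e-12). On these steps it moved in the direction of DUSP6, whereas the brighter probe gave -0.18 and 0.33 for the NSB steps and passed in neither. Probe sequences were not analysed here, and which transcripts of SPRY4 each probe reads was not tested. Another SPRY4 probe and another SPRY1 probe were detected on 0 arrays.

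**Figure D2:**
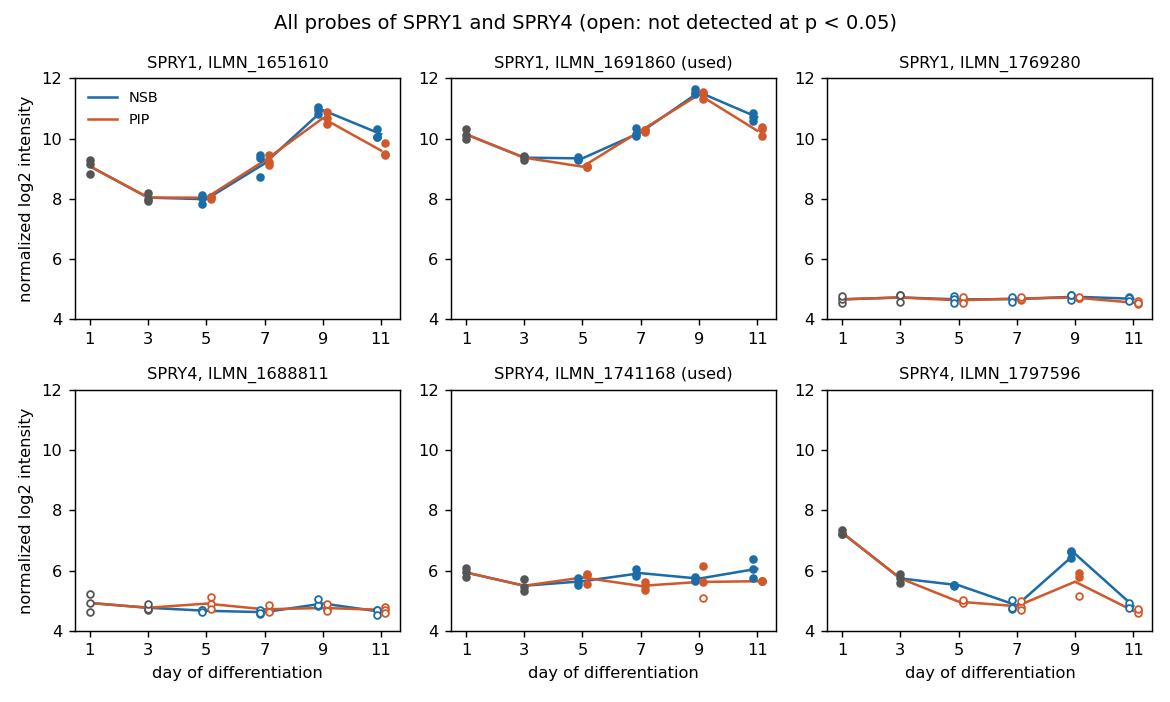
Normalized log2 level of each probe of SPRY1 and SPRY4 (vertical axes) against day (horizontal axes), with 1 point per array and open points where the probe was not detected. Both filtered SPRY1 probes peak at day 9, whereas of the SPRY4 probes only the one detected on 14 arrays shows high values at day 1 and day 9.

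SPRED1 varied over a narrow range, 2.94-fold between its extreme arrays, with small errors. It read 11.73, 11.88 and 11.82 at day 1, 10.80, 10.76 and 10.86 at day 3, and at day 5 it was at 10.67, 10.54 and 10.62 in NSB and 10.75, 10.81 and 10.89 in PIP. Day 7 gave 11.23, 11.19 and 11.28 in NSB and 11.07, 11.10 and 11.14 in PIP, and day 9 gave 11.68, 11.63 and 11.80 in NSB and 11.54, 11.46 and 11.48 in PIP. In both arms day 7 lay above day 5 and day 9 above day 7, without overlap. At day 11 it read 11.92, 12.02 and 12.09 in NSB and 11.51, 11.64 and 11.54 in PIP. The NSB arrays of day 11 were above every other array, and those of PIP at day 11 lay within the range spanned by day 9. It rose from day 3 to day 11 by 1.20 ± 0.07 in NSB and 0.75 ± 0.07 in PIP (adjusted p = 7.34e-15 and 2.03e-10).

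Called members after day 3 were counted by step, each time beside the share of all genes called. With only 8 members, the counts from day 3 to day 5, from day 9 to day 11 and, in PIP, from day 3 to day 11 were not far from that share. From day 3 to day 5 only 2 of 8 passed in each arm, all lower, namely ETV4 and SPRED1 in NSB and ETV4 and SPRY1 in PIP, where 36.8% and 44.4% of all genes passed. The SPRED1 call was lost without replicate 1 or 3 of day 3 or replicate 2 or 3 of NSB day 5 (adjusted p 0.0532 to 0.122). From day 5 to day 7, 6 of 8 rose and ETV4 fell in each arm, against 42.7% of all genes called in NSB and 33.5% in PIP. The rises ran from 0.62 for SPRED1 to 1.48 for IL17RD in NSB, and in PIP from 0.29 for SPRED1 to 1.74 for ETV5 and 1.74 for IL17RD. Under median scaling on all probes the PIP calls of ETV4 (-0.32) and SPRED1 (0.31) were lost (adjusted p = 0.0674 and 0.089). SPRY1 rose by 0.87 in NSB and 1.19 in PIP, and SPRY2 by 0.86 and 0.70. Arrays of day 5 carry 2 sample codes each and those of day 7 carry 1, which cannot be told apart from the day on this step. From day 7 to day 9, 7 of 8 rose in each arm, all but SPRY4, against 47.8% and 46.4% of all genes. In PIP the calls of ETV4 and SPRED1 on this step were lost under median scaling on all probes (adjusted p = 0.330 and 0.0586). The median member rose by 1.36 in NSB and 0.94 in PIP on that step, with medians over all genes of -0.01 and 0.00. From day 9 to day 11 the called members moved in both directions. In NSB, IL17RD and SPRED1 rose and DUSP6, SPRY1 and SPRY2 fell, where 51.1% of all genes passed, and SPRED1 (0.31 ± 0.07) turned to -0.24 under median scaling on all probes (adjusted p = 0.116). In PIP, IL17RD rose and ETV4, ETV5, DUSP6, SPRY1 and SPRY2 fell, where 47.6% passed. ETV5 in NSB moved by -0.08 ± 0.11 (adjusted p = 0.583) on that step and in PIP by -0.61 ± 0.11 (adjusted p = 3.43e-05). With median scaling on all probes both ETS factors were also lower at NSB day 11 than at NSB day 9, ETV5 by -0.67 (adjusted p = 3.58e-04) and ETV4 by -0.73 (adjusted p = 8.07e-06), and ETV4 also passed without replicate 3 of NSB day 9 (-0.33, adjusted p = 0.0250). Over the whole interval from day 3 to day 11, 7 members rose and 1 fell in NSB against 66.0% of all genes called, and 6 rose and 1 fell in PIP against 62.4%. These counts take the brightest probe of each gene, and the other filtered SPRY4 probe was lower at day 11 in both arms. The rise of SPRY2 in PIP (0.46 ± 0.11) was lost under median scaling on all probes (0.20, adjusted p = 0.209). The rise of DUSP6 in PIP over that interval, at least 1.19-fold at an adjusted p of 0.0215, did not pass with a larger offset in the background correction (0.26 on the log2 scale), without replicate 1 of day 3 (0.45, adjusted p = 0.0684) or without replicate 1 of PIP day 11 (0.34, adjusted p = 0.146).

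At days 5 and 7 the arms were close for these genes. At day 5 none of the 8 passed between PIP and NSB in limma, where 11.5% of all genes did. The nearest were SPRED1 at 0.21 ± 0.07 (adjusted p = 0.0522) and SPRY1 at -0.28 ± 0.09 (adjusted p = 0.0538). Before adjustment 2 of the 8 had a p under 0.05, a count not made over all genes. At day 7, ETV4 and ETV5 were higher in PIP, by 0.41 ± 0.11 and 0.33 ± 0.11 (adjusted p = 0.0158 and 0.0481), against 12.4% of all genes called. Both calls were lost when only the groups compared entered the fit (adjusted p = 0.119 and 0.139), and without replicate 2 or 3 of NSB day 7 or replicate 3 of PIP day 7 (adjusted p 0.0563 to 0.225). With the replicate number as a block ETV5 did not pass (adjusted p = 0.0520). At day 9, 5 of 8 were lower in PIP, against 20.8% of all genes called. They were DUSP6 (-0.90 ± 0.19, adjusted p = 5.98e-04), ETV5 (-0.56 ± 0.11), SPRY2 (-0.52 ± 0.11), IL17RD (-0.47 ± 0.12) and SPRED1 (-0.21 ± 0.07, adjusted p = 0.0297). The SPRED1 call was lost without replicate 1 or 3 of NSB day 9 or replicate 2 or 3 of PIP day 9 (adjusted p 0.0511 to 0.166), and that of IL17RD without replicate 1 of PIP day 9 (adjusted p = 0.0513). SPRED1 also did not pass with only the groups compared (adjusted p = 0.105) or under median scaling on all probes (adjusted p = 0.0614). ETV4 differed by -0.01 ± 0.11 on that day, with a 95% interval of -0.25 to 0.22.

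At day 11, 7 of 8 members were lower in PIP than in NSB, where 25.5% of all genes differed and 11.4% were called lower. The median member difference was -1.01 against 0.00 over all genes. IL17RD, which antagonises FGF signalling at membranes, was 2.88-fold lower in PIP (-1.53 ± 0.12, adjusted p = 3.04e-11). The ETS factors followed, ETV4 2.73-fold lower (-1.45 ± 0.11, adjusted p = 4.89e-11) and ETV5 2.13-fold lower (-1.09 ± 0.11, adjusted p = 5.76e-09). The phosphatase DUSP6 was 2.4-fold lower (adjusted p = 5.11e-06) and SPRY2 1.9-fold lower (adjusted p = 1.52e-07). SPRY1 and SPRED1 differed less, by -0.45 ± 0.09 and -0.45 ± 0.07 (adjusted p = 4.75e-04 and 1.02e-05). In all 7 of these genes, and in SPRY4, the highest PIP array lay below the lowest NSB array. How many of all genes were separated in this way was not counted. SPRY4 differed by -0.41 ± 0.17 and did not pass (adjusted p = 0.0787, 95% interval -0.77 to -0.06). Median scaling on all probes moved the median of all genes at day 11 by 0.34 and the share of called genes that were higher in PIP from 55.5% to 94.3%, and median scaling on detected probes gave 34.6%. ETV4, ETV5, DUSP6, IL17RD and SPRY2 remained lower in PIP under each of these scalings, and SPRY1 (-0.05) and SPRED1 (-0.12) did not pass under the first. At day 11 the summed level of 6 trophoblast genes was 1186 to 1646 in PIP and 214 to 261 in NSB, and that of 8 neural crest genes was 935 to 1216 and 559 to 604. The brightest trophoblast gene in PIP was CGA, with a mean of 9.87 against 5.60 in NSB. Means of GCM1 in the first list and of SNAI2 and NGFR in the second were lower in PIP, and those of the other listed genes were higher. The part that these markers, or the ectoderm markers above, had in the member differences was not tested.

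**Figure D3:**
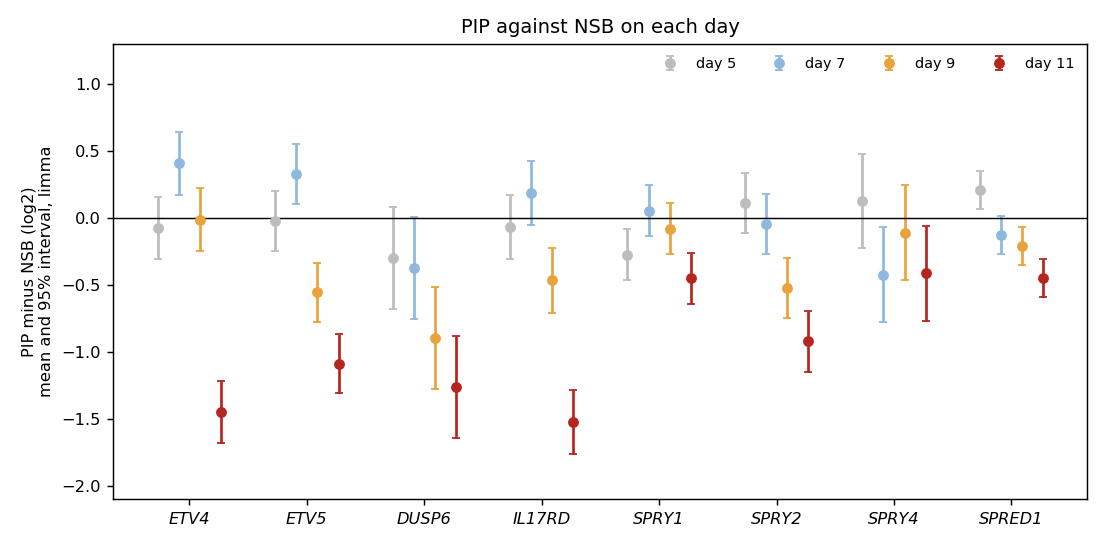
Log2 difference of PIP minus NSB (vertical axis) for each member (horizontal axis) at days 5, 7, 9 and 11 (colours), with points for the estimate and bars for the 95% interval of the limma fit, n = 3 arrays per group. At day 11 the intervals of all 8 members lie below 0, and SPRY4 did not pass after adjustment.

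Whether the gap between the arms at day 11 differed from that at day 5 was tested as an interaction. The estimate was below 0 for all 8 members, and 6 of 8 passed. Of all genes, 19.9% were called in either direction and 8.47% were called below 0. The differences were -1.46 ± 0.17 for IL17RD, -1.38 ± 0.16 for ETV4, -1.07 ± 0.15 for ETV5, -1.03 ± 0.16 for SPRY2, -0.96 ± 0.26 for DUSP6 and -0.66 ± 0.10 for SPRED1, with adjusted p-values from 1.60e-07 to 0.00959. SPRY1 (-0.18 ± 0.13, adjusted p = 0.386) and SPRY4 (-0.54 ± 0.24, adjusted p = 0.123) did not pass. The other SPRY1 probe gave -0.60 (adjusted p = 0.0485). With median scaling on all probes, which shifted the median of all genes by 0.50 in this contrast, 2 members passed, ETV4 at -0.77 and IL17RD at -0.99. Of the 13488 genes, 6248 passed under that scaling, 6069 above 0 and 179 below.

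The other genes of the pathway were read from lists chosen with earlier results known. From day 1 to day 3, of 14 other ERK feedback and ERK-dependent genes 4 rose and 5 fell (median -0.17, against 0.01 over all genes tested), where 54.4% of all genes passed. The largest falls were in MYC (-1.89), a transcription factor of growth, EPHA2 (-1.48), an ephrin receptor, and DUSP5 (-1.39), a nuclear ERK phosphatase, and the largest rises in EPHA4 (1.49), CCND1 (0.98), which encodes cyclin D1, and SPSB4 (0.50). Of 9 immediate early genes 6 fell, IER3 (-3.10), FOSL1 (-1.27) and IER2 (-1.15) the most, and EGR1, a zinc finger factor induced by growth factors, rose by 3.19. Of 4 FGF receptor genes 2 rose, FGFR1 by 1.61 and FGFR3 by 0.51, and 2 fell, FGFRL1, a receptor without a kinase domain, by 2.15 and FGFR4 by 0.51 on the log2 scale. The 14 genes of the FGF family had 2 higher and 3 lower, and the 14 genes of the RAS to ERK cascade 5 higher and 3 lower. The family list held FGF11, FGF12 and FGF13, whose proteins stay inside the cell and are not receptor ligands. Outside the 8 members, then, ERK-dependent transcripts moved in both directions on that step.

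From day 7 to day 9, 10 of the 14 other feedback and ERK-dependent genes rose and 1 fell in NSB, and the counts were 10 and 1 in PIP, with medians of 0.70 and 0.63. Of all genes 47.8% passed on this step in NSB and 46.4% in PIP. The largest rises in NSB were FLRT2 (1.80), DUSP4 (1.43), a nuclear ERK phosphatase, and DUSP5 (1.31), and in PIP FLRT2 (1.97), DUSP5 (1.70) and FLRT3 (1.37), a membrane protein that in Xenopus promotes FGF signalling. The genes that fell were EPHA4 in NSB (-0.31) and CCND1 in PIP (-0.53). Of the 14 FGF family genes 2 rose and 2 fell in NSB (median -0.11), and 3 rose and 2 fell in PIP (median -0.10). In NSB, FGF8 (1.67) and FGF9 (0.95) rose and FGF12 (-0.60) and FGF19 (-0.25) fell. In PIP, FGF9 (1.29), FGF16 (0.86) and FGF8 (0.77) rose and FGF11 (-0.43) and FGF19 (-0.28) fell. Of the 4 receptors 3 fell in each arm, FGFR3 by 1.19 in both, FGFR4 by 1.17 in NSB and 1.27 in PIP and FGFR1 by 0.29 and 0.75 on the log2 scale, while FGFRL1 rose by 0.90 and 0.79. The cascade genes had 2 higher and 1 lower in NSB and 2 higher and 4 lower in PIP, and the 9 immediate early genes 4 higher and 1 lower in NSB and 5 higher and 0 lower in PIP.

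At day 11 the other feedback and ERK-dependent genes were split between the arms, 5 of 14 lower in PIP and 3 higher (median -0.08), where 25.5% of all genes passed. Lower in PIP were DUSP4 (-1.48), EPHA2 (-0.99) and SPRED2 (-0.42), the paralogue of SPRED1, and higher were FLRT3 (1.26), PHLDA1 (1.08) and SPSB4 (1.04). Of the 14 FGF family genes 5 were lower in PIP, FGF8 (-1.96), FGF9 (-1.10) and FGF18 (-0.41) the most. Only FGF12, which encodes one of the intracellular proteins, was higher (0.96). Of the receptors, FGFRL1 (-0.81) and FGFR4 (-0.51) were lower and FGFR3 higher (0.25). The cascade had 1 gene in each direction, KSR1 (-0.37), a scaffold of the cascade, and MAPK3 (0.24), which encodes an ERK, and of 9 immediate early genes only KLF6 passed (0.81).

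**Figure D4:**
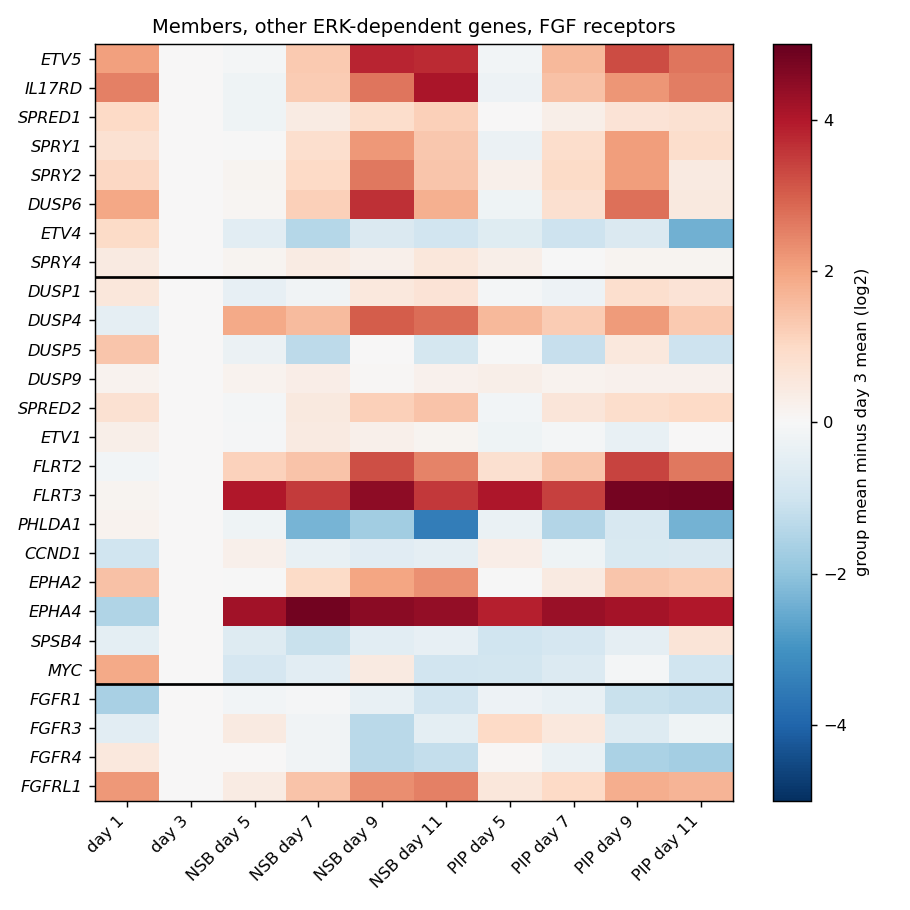
Group mean minus the mean of day 3 on the log2 scale (colour) for the 8 members (top block), 14 other ERK feedback and ERK-dependent genes (middle block) and 4 FGF receptors (bottom block), in columns by group. The members except ETV4 and SPRY4 are red at day 1 and from day 7 on, and in the middle block SPRED2 and EPHA2 show a like course while PHLDA1 is blue from day 7 on.

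Among themselves the members differed in course. Over the 30 arrays, which share groups and normalization, Pearson r was 0.96 between DUSP6 and SPRY2 and 0.96 between IL17RD and SPRED1, and between ETV4 and ETV5 it was -0.23. These are descriptions of shared day and arm differences. The 3 genes outside the 8 whose levels were most like each member over the 30 arrays were, for ETV5, SPRED2, FYTTD1 and SMAD3 (r = 0.96 each), for IL17RD, SPRED2 (0.96), EPHA2 (0.95) and FGFRL1 (0.94), and for SPRED1, FGFRL1 (0.96), SIPA1L2 (0.95) and EPHA2 (0.94). For DUSP6 they were MAT2A (0.91), PGBD1 (0.91) and WDR73 (0.89), for SPRY1 WDR73 (0.94), ITGAV (0.93) and TMEM97 (0.93), and for SPRY2 GAD2 (0.92), TMEM97 (0.91) and RMC1 (0.90). For ETV4 they were CABLES1 (0.94), L1TD1 (0.94) and SNORA64 (0.92). For SPRY4, whose probe used here varied little, the highest were lower, ASIC5 (0.80), ZNF536 (0.68) and LINC02696 (0.67). The mean of the standardized members was most like FGFRL1 (0.93), EPHA2 (0.92) and MPPED2 (0.90) among 13480 other genes.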

How the data were processed

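Total RNA of 30 samples was hybridised to Illumina bead arrays in 10 groups of 3. Per the file headers, the deposited table of raw values gives for each probe and array a mean intensity, the standard error of the signal over beads, the count of beads and a detection p-value, and GenomeStudio is named per the submitters' processing notes, with no version. A second deposited table holds the authors' processed intensity values, 35.1% of them below 0, whose processing is not given in the sources used here, and it served as an alternative. Raw signals were background-corrected by normexp on the negative control distribution inferred from detection p-values (offset 16), quantile-normalized and log2-transformed with neqc in limma 3.58.1 (R 4.3.3). Probes detected at p under 0.05 on at least 3 arrays were kept (21500 of 48701), 15495 of them with 1 gene symbol in the platform annotation, and the brightest probe stood for each of 13488 genes. One model over all 10 groups (20 residual degrees of freedom) with eBayes gave 16 comparisons, each adjusted by the Benjamini-Hochberg method over all genes.

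The precision is set by 3 arrays per group, whose log2 levels had a standard deviation of 0.136 for the median gene. The labels do not say that replicate numbers pair arrays across groups. Residuals of same-numbered arrays correlated at -0.0091 on average, and those of other pairs at 0.0048. An average over all groups cannot show whether arrays of some groups were paired. No 2 arrays held identical values. The fit was tested on simulated data. The members, the 5 pathway lists and the 7 marker lists were chosen with earlier results of these data known. Named genes are the members, the listed genes that changed most in a comparison (up to 3 each way per list) and the 3 genes most like each member. Some listed genes were not analysed here. Alternatives were other scalings, offsets, filters and probes, the processed table, the compared groups alone, a replicate block, and leaving out each array, and, chosen after seeing the data, leaving out the 6 arrays of day 9 and using each SPRY1 and SPRY4 probe by itself.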

Additional observations from a re-analysis of the deposited data

Results flagged for a closer look

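The difference between PIP and NSB at day 11 was set against that at day 5 by an interaction term in limma, and 6 members passed after Benjamini-Hochberg adjustment over 13488 genes, where 19.9% of all genes did. The change on the log2 scale was -1.46 for IL17RD, -1.38 for ETV4, -1.07 for ETV5, -1.03 for SPRY2, -0.96 for DUSP6 and -0.66 for SPRED1, and for each gene the 3 PIP arrays of day 11 lay below the 3 NSB arrays of that day. The arrays of SPRY1 and SPRY4, which did not pass, were separated in the same way. How many of all genes were separated so was not counted, so this separation has no background beside it. Under median scaling on all probes only IL17RD and ETV4 passed for the change, and ETV5, SPRY2, DUSP6 and SPRED1 did not. At day 5 DUSP6 was not detected in either arm, so its value there is a background reading.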

How the results depend on the processing

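Over the 16 comparisons, 1943 of 2088 member values recomputed under an alternative kept their direction and their side of the threshold, 56 lost the call and 41 gained one. The sign turned in 48, in 14 of them with the reported or the recomputed value past the threshold, and in 34 with neither past it. SPRY4 turned with the probe. The mean of its probes gave 0.77 (NSB day 9 against day 7), -0.70 (NSB day 11 against 9), -0.18 (NSB day 11 against 3), -0.47 (PIP day 11 against 9) and -0.46 (PIP day 11 against 3). The other probe alone, set each time against a group where it was not detected so that the sizes are readings at background, gave 1.71, -1.73, -0.92, -0.97 and -1.08 for these, and -0.67 (NSB day 7 against 5), -0.77 (PIP day 5 against 3) and -0.55 (PIP against NSB at day 5). SPRED1 turned to -0.24 (NSB day 11 against 9) under median scaling on all probes. That scaling left 1 member called for NSB day 5 against day 3 (reported: 2), 1 for the arms at day 5 (reported: 0), 1 at day 7 (reported: 2) and 2 for the change from day 5 to day 11 (reported: 6). Counts of all genes under it were 2846 for PIP day 7 against 5 (4520), 1081 for the arms at day 7 (1678), 5628 at day 11 (3442) and 6248 for the change (2690), with the reported counts in parentheses. For PIP day 5 against day 3 (reported: 2), 1 member passed with the mean of probes and 4 with only the groups compared. For the arms at day 5, 1 member passed with scaling on detected probes, the processed table, no filter or the mean of probes, and 2 with an offset of 50, a detection p under 0.01 or only the groups compared. For the arms at day 7, 1 passed with the processed table or no filter, and 0 members and 782 genes with only the groups compared. The replicate block left 1 member at day 7, ETV4, with ETV5 at an adjusted p of 0.0520, and changed no other member call. Leaving out 1 array gave 1 to 2 members for NSB day 5 against 3, 2 to 4 for PIP day 5 against 3, 0 to 2 for the arms at day 7, and 875 to 1171 genes (reported: 1554) for the arms at day 5, where no member passed. Of 514 recomputed counts, 481 were within 1.5 times the reported one. Without the 6 arrays of day 9, 8 members passed for the arms at day 11 and 7 for the change. The added member was SPRY4 in each, whose differences stayed at -0.41 and -0.54 (limma adjusted p = 0.0237 and 0.0455). The share of all genes called without those arrays is not given here, so these counts have no background beside them. Signal over background limits DUSP6 at days 3 and 5 and SPRY4 throughout. The causes of these shifts were not tested.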
